A study of Mus musculus with 22 samples.

Results

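Neurofilament and axon cytoskeleton genes were described as a set of 9 members, Nefl, Nefm, Nefh, Ina, Mapt, Map1b, Stmn2, Tubb3 and Gap43, found by symbol among the 17306 genes of the expression table. The 9 members all passed the filter on low values and were among the 16765 genes tested. Expression is given as log2 CPM, the log2 of a gene's reads relative to all reads on genes of its library, after scaling of the libraries.

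Neurofilaments are the intermediate filaments of neurons. They are built from a light, a medium and a heavy chain, encoded by Nefl, Nefm and Nefh, together with α-internexin, encoded by Ina, and they support the calibre of large myelinated axons such as those of motor neurons. Axonal microtubules are polymers of α- and β-tubulin, of which Tubb3 encodes a neuronal β-tubulin. Tau (Mapt) and Map1b bind microtubules, stathmin-2 (Stmn2) binds tubulin and serves the upkeep and regrowth of axons, and Gap43 is a membrane protein of growth cones and of axon sprouting.

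RNA sequencing was performed on lumbar spinal cord of 22 male wildtype C57BL6J mice aged 12-14 weeks at collection. Every mouse had knee joint pain from 1 mg of monoiodoacetate (MIA), which blocks glycolysis and damages cartilage, so no group was free of injury. SAFit2, which blocks the stress-linked co-chaperone FKBP51, was given at 100 mg/kg in a slow-release phospholipid gel to 5 Early SAFit2 and 5 Late SAFit2 mice, and 6 Early Vehicle and 6 Late Vehicle mice received gel alone. The gel was injected on days -3 and 4 around MIA in the early groups and on days 20 and 27 in the late groups, and tissue was taken on day 30. In the sample labels the early days are 3 and 4, and Early SAFit2 mice are titled SAFit1 but carry the treatment label SAFit2. Early and late are also the batch names of the labels, so timing and batch cannot be told apart in any comparison of level between them. The labels give each library as a separate sample, and the study treats the animal as its unit.

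Depth ranged from 11352989 to 24433349 reads on genes per library, of which the 9 members took between 0.4945% and 1.2855%. The noncoding RNA Bc1 took 0.623% to 16.504% of reads, most in Late SAFit2 mouse 5. The 7 neuronal markers (among them Rbfox3, Snap25 and Thy1) were high in every library, with summed levels of 5789 to 7483 CPM. Of the 7 markers of dorsal root ganglion sensory neurons, Scn10a, Trpv1 and Prdm12 have no row in the table. Libraries also stood apart in other tissues: the mean log2 CPM of the 5 Schwann cell markers was -0.03 in Late SAFit2 mouse 2 and 5.25 to 8.01 in the other Late SAFit2 mice, and the 4 skeletal muscle markers summed to at most 7.35 CPM in the other groups and reached 183 CPM in Late SAFit2. The part of these differences in the results below was not tested, and results for the members are given with each library left out where that changed a call.

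The members lie on 7 chromosomes of the mouse genome (GRCm38, GENCODE gene spans). Nefl (chr14:68083863-68089095, plus strand) and Nefm (chr14:68082590-68124846, minus strand) are neighbours whose GENCODE spans overlap on opposite strands. Their RefSeq spans, 68083863-68089095 and 68119545-68125004, do not overlap. Whether the authors' counting used strand is not given in the sources used here. Nefh is at chr11:4938754-4948064 (minus), Mapt at chr11:104231390-104332090 (plus) and Ina at chr19:47014698-47025327 (plus). Map1b is at chr13:99421446-99516540 (minus), Stmn2 at chr3:8509360-8561606 (plus), Tubb3 at chr8:123411424-123422015 (plus) and Gap43 at chr16:42248442-42340651 (minus). By the RefSeq spans, Nefh shares its locus with Ap1b1 and Ina with Nt5c2, and Tubb3 belongs to a family of closely similar tubulin genes, so reads of these members could be split or shared in counting.

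Promoters are shown for Ina and Tubb3, the members that passed the test between the Vehicle groups below. Each run holds 250 bases before and 50 after the RefSeq start (GRCm38.p6, plus strand). Ina is at chr19:47014431-47014730 and Tubb3 at chr8:123411303-123411602. Capitals mark GGGCGG (or CCGCCC on the other strand), the core of a GC box, and TATAA (or TTATA on the other strand), the core of a TATA box.
Ina: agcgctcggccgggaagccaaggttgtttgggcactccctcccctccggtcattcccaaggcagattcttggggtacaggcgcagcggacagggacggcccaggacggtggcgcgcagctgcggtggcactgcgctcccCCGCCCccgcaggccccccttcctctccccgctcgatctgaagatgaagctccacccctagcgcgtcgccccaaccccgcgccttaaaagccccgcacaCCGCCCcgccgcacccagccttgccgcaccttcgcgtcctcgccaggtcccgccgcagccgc
Tubb3: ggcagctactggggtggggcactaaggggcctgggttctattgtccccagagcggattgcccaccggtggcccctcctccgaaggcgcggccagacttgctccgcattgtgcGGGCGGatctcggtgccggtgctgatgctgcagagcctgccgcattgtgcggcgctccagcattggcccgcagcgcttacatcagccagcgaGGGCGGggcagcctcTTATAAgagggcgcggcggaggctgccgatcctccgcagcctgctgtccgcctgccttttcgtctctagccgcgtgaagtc
Each promoter held 2 GC box cores, which 35.7% of 32851 promoters of this length hold at least once. The Tubb3 run also held TATAA and TTATA overlapping in the letters TTATAA, and one or other of these occurs in 24.9% of promoters. The Ina run was 71.7% G and C (percentile 92.9 of all promoters) and the Tubb3 run 67.3% (percentile 86.5). Promoters of the other members are not shown.

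The neurofilament chains were the most abundant members per transcript length. On the scale of CPM per kilobase of the longest coding transcript, the median over 22 libraries was 546 for Nefm, 390 for Nefl and 250 for Nefh. It was 209 for Stmn2, 200 for Tubb3, 163 for Gap43, 124 for Map1b, 100 for Mapt and 67.3 for Ina. The fourth neurofilament subunit of the central nervous system, Ina, was thus the lowest member. Nefm lay above Nefl in 22 of 22 libraries, by 0.59 ± 0.33 on the log2 scale per kilobase (SD, n = 22), Nefl above Nefh in 22 of 22 by 0.64 ± 0.16, and Mapt above Ina in 22 of 22 by 0.50 ± 0.34. The order between was less fixed: Nefh lay above Stmn2 in 14 of 22 libraries by 0.21 ± 0.41 and Stmn2 above Tubb3 in 16 by 0.22 ± 0.42. Tubb3 lay above Gap43 in 14 by 0.23 ± 0.58 and Gap43 above Map1b in 16 by 0.29 ± 0.46. The order of these neighbours thus varied from library to library, and their mean differences were not tested.

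**Figure D1:**
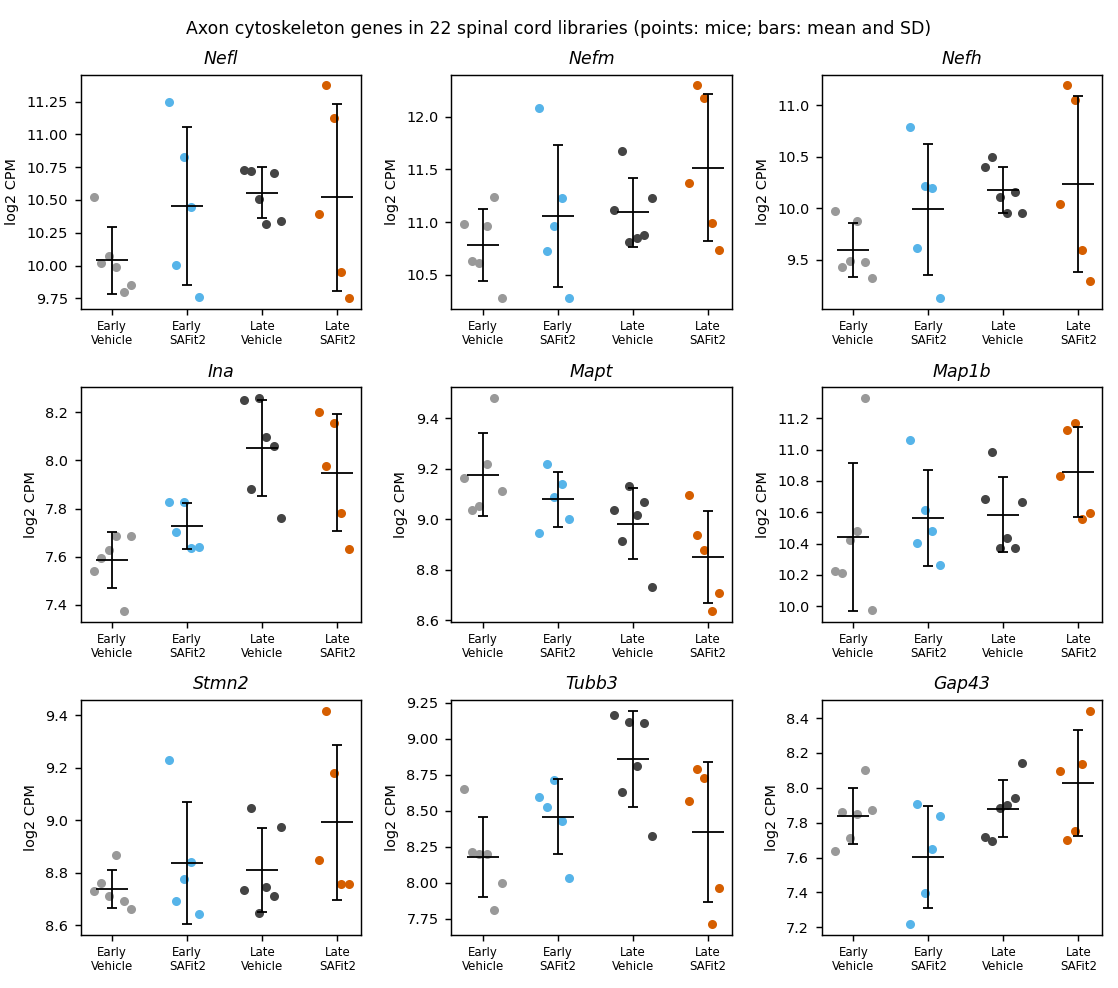
Expression of the 9 members (log2 CPM, vertical axes, not starting at 0) in Early Vehicle, Early SAFit2, Late Vehicle and Late SAFit2 mice. Each point is 1 mouse and bars give the mean and SD. The neurofilament chains spread most within the SAFit2 groups, Ina and Tubb3 are higher in Late Vehicle than in Early Vehicle mice, and SAFit2 and Vehicle mice of the same timing overlap for every member.

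Most of the variation of the neurofilament chains lay between mice of the same group. The 4 groups accounted for 20.0% of the variance of Nefl, 23.1% of Nefm and 22.1% of Nefh, and the SD within groups was 0.47, 0.52 and 0.53 log2 CPM. These values stood at percentiles 69.7, 73.4 and 74.0 of the within-group SD of all genes tested. Nefl differed 3.08-fold between its lowest and highest library, Nefm 4.05-fold and Nefh 4.19-fold. Other members were among the steadier genes, with a within-group SD of 0.15 for Mapt (percentile 6.0) and 0.17 for Ina (percentile 10.5). For Ina the groups accounted for 59.0% of the variance, the highest share of any member.

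The same few libraries carried the high neurofilament values. Nefl was at 11.24, 10.00, 10.83, 10.45 and 9.76 log2 CPM in Early SAFit2 mice 1 to 5 and at 10.39, 11.38, 11.13, 9.95 and 9.75 in Late SAFit2 mice 1 to 5. In Vehicle mice it ranged from 9.80 to 10.52 (median 10.00) in the early and from 10.32 to 10.73 (median 10.61) in the late group. Late SAFit2 mice 2 and 3 and Early SAFit2 mice 1 and 3 lay above every Vehicle mouse, while Early SAFit2 mouse 5 and Late SAFit2 mouse 5 lay below them. The SD of Nefl was 0.71 in Late SAFit2 against 0.19 in Late Vehicle, and 0.60 in Early SAFit2 against 0.26 in Early Vehicle. Nefm reached 12.09 in Early SAFit2 mouse 1, 12.30 in Late SAFit2 mouse 2 and 12.18 in Late SAFit2 mouse 3. Nefh, the heavy chain, reached 10.79, 11.19 and 11.05 in the same mice. Stmn2 also peaked there, at 9.23, 9.42 and 9.18, against at most 9.05 in any Vehicle mouse.

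Gap43 ran the other way. It was at 7.22, 7.91, 7.40, 7.65 and 7.84 log2 CPM in Early SAFit2 mice 1 to 5 and at 8.10, 7.70, 7.75, 8.14 and 8.44 in Late SAFit2 mice 1 to 5. Early Vehicle mice ranged from 7.64 to 8.10 (median 7.86) and Late Vehicle mice from 7.70 to 8.14 (median 7.89). Its lowest values were in Early SAFit2 mice 1 and 3, and its highest in Late SAFit2 mouse 5, the library lowest in Nefl.

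Correlations were computed over the 22 libraries on residuals from the group means, as a description, since all genes of a library share its depth and scaling. Nefl and Nefh had Pearson r = 0.96 (Spearman rho = 0.93), Nefm and Nefh r = 0.90 (rho = 0.87) and Nefl and Nefm r = 0.82 (rho = 0.75). Stmn2 followed Nefm (r = 0.89) and Nefh (r = 0.83). Gap43 was opposed to Nefl (r = -0.91, rho = -0.90), Nefh (r = -0.87) and Nefm (r = -0.69). Without the 2 libraries farthest from the median of Nefl, r was 0.94 for Nefl with Nefh and -0.88 for Nefl with Gap43. The median r of Nefl with all other genes tested was 0.02 and the 95th percentile 0.49. Ina and Mapt were less close to the chains, with r = 0.48 for Ina with Nefl and r = 0.12 for Mapt with Nefl. Ina was closest among the members to Tubb3 (r = 0.74). After each library's trend on GC content and transcript length was removed, r was 0.81 for Nefl with Nefh and -0.92 for Nefl with Gap43. For Tubb3 it went from 0.31 to 0.95 with Stmn2 and from 0.76 to 0.96 with Nefl. For Ina it went from 0.16 to 0.62 with Nefm and from 0.45 to 0.61 with Nefh. With Nefl the r of Ina went from 0.48 to 0.36 and with Tubb3 from 0.74 to 0.41, so its closest member was then Nefm. For Mapt, r with Nefl, Nefm and Nefh went from 0.12, 0.17 and 0.21 to -0.01, 0.41 and 0.26.

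**Figure D2:**
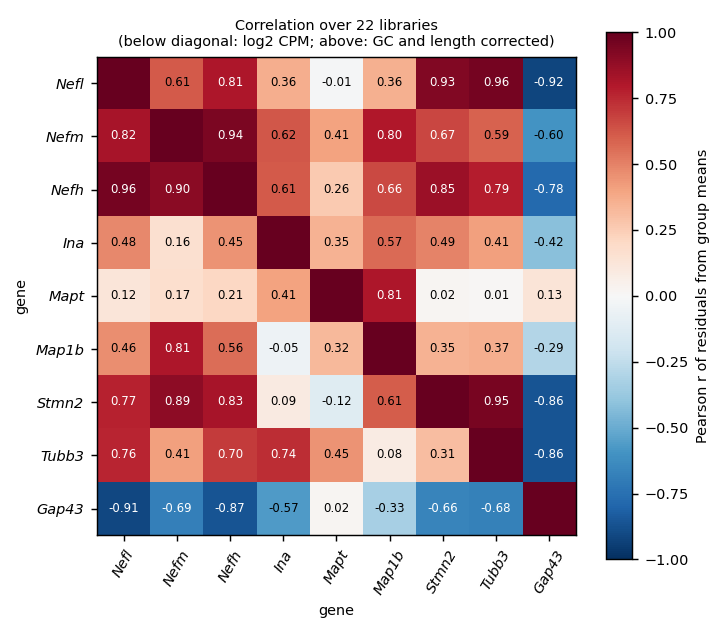
Pearson r between members over 22 libraries, on residuals from group means, of log2 CPM (below the diagonal) and of values corrected for GC content and length (above it). Red is positive and blue negative. Nefl, Nefm, Nefh and Stmn2 form a block with r from 0.77 to 0.96 below the diagonal, and Gap43 is negative with each of them, from -0.66 to -0.91. Above the diagonal the same block runs from 0.61 (Nefl with Nefm) to 0.94 (Nefm with Nefh). Below it, Map1b is at 0.81 with Nefm, 0.61 with Stmn2, 0.56 with Nefh and 0.46 with Nefl.

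The genes closest to each member across libraries, by the same residual r, included other members for 3 of them: Nefh for Nefl (r = 0.96), Nefl for Nefh (r = 0.96) and Nefm for Stmn2 (r = 0.89). The remaining closest genes were Dffa for Nefl (r = 0.96), Sh3bgr and Kctd9 for Nefm (r = 0.92 and 0.91), Ahnak2 for Nefh (r = 0.94) and Pank1 for Stmn2 (r = 0.89). Tuba4a, which encodes an α-tubulin, was closest to Ina (r = 0.91), followed by Acan (r = 0.90), which encodes the perineuronal net proteoglycan aggrecan. Mrpl24 was close to Mapt (r = 0.88). Map1b was closest to Map7d2 and Kcna2 (r = 0.87 and 0.84), Tubb3 to Gas6 and Gpc1 (r = 0.95 and 0.94) and Gap43 to Kcnk2 and Serac1 (r = 0.95 and 0.89).

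The neurofilament chains moved with markers of motor neurons, whose cell bodies lie in the ventral horn and whose axons are rich in neurofilament. The study's text describes dorsal horn quadrants and the labels lumbar cord, and Chat, the enzyme of acetylcholine synthesis, had 21 to 421 reads in the 22 libraries. The summed level of the 5 markers (Chat, Slc5a7, Slc18a3, Isl1, Mnx1) ranged from 13.72 to 85.77 CPM in Early Vehicle, from 5.77 to 175.7 in Early SAFit2, from 17.76 to 116.34 in Late Vehicle and from 29.08 to 227.8 in Late SAFit2. Mnx1 was at 0 reads in 6 libraries. Their mean was highest in Late SAFit2 mouse 2 (4.10 log2 CPM), Early SAFit2 mouse 1 (3.60), Late SAFit2 mouse 3 (3.51) and Early SAFit2 mouse 3 (3.35), the mice highest in Nefl.

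Over residuals of the 22 libraries, r with this mean was 0.90 for Nefl (rho = 0.93), 0.85 for Nefh, 0.76 for Nefm, 0.73 for Stmn2 and 0.59 for Tubb3. It was 0.44 for Map1b, 0.22 for Ina and -0.07 for Mapt. For Gap43 it was -0.80 (rho = -0.79). Without the 2 libraries farthest from the median of the marker mean, r was 0.89 for Nefl and -0.75 for Gap43. Other lists moved with the members too. For the dorsal root ganglion markers r was 0.64 with Nefl, 0.56 with Nefm, 0.61 with Nefh and 0.62 with Tubb3. For the ependymal markers it was -0.68, -0.52, -0.65 and -0.68 in the same order, and 0.67 with Gap43. For the endothelial markers it was 0.53 with Nefl and 0.63 with Tubb3, and for the oligodendrocyte markers 0.67 with Mapt. For the Schwann cell markers it was -0.56 with Nefl and -0.60 with Stmn2. Without the 2 libraries farthest from the median of that list, these were -0.17 and -0.23. The part of any of these in the members' differences was not tested, apart from the fit with the motor neuron mean as a covariate. In bulk tissue, fewer cells of a type and less RNA per cell cannot be told apart.

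**Figure D3:**
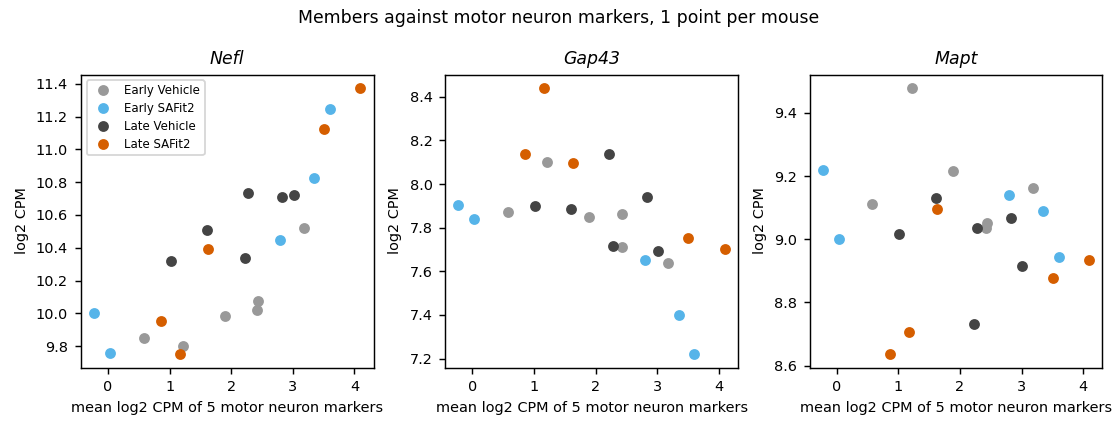
Log2 CPM of Nefl, Gap43 and Mapt (vertical axes, not starting at 0) against the mean log2 CPM of 5 motor neuron markers (horizontal axes), with 1 point per mouse coloured by group. Nefl rises along the marker mean (residual r = 0.90), Gap43 falls (r = -0.80) and Mapt shows little relation (r = -0.07).

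Early SAFit2 was compared with Early Vehicle, the question being whether treatment at pain onset left a lasting change. None of the 9 members passed the test (limma with Benjamini-Hochberg adjustment over all genes tested, adjusted p under 0.05 and at least 1.2-fold), where 0% of all genes passed. At a nominal p under 0.05 it was 0 of 9 members, beside 2.48% of all genes, and limma voom on reads called 0 members as well. The largest differences were +0.41 ± 0.25 for Nefl (SE, 95% interval -0.10 to 0.93, adjusted p = 1.0) and +0.39 ± 0.28 for Nefh (-0.18 to 0.97). Nefm differed by +0.27 ± 0.28, Tubb3 by +0.28 ± 0.19 and Gap43 by -0.24 ± 0.13. The smallest exact permutation p of a member was 0.0563, for Ina (+0.14, two-sided, over all splits of 5 and 6 mice). The median difference of the members was +0.14, beside +0.01 for all genes tested. The chains rested on single mice: without Early SAFit2 mouse 1, the differences were +0.01 for Nefm, +0.22 for Nefl and +0.19 for Nefh. The nominal count was 3 of 9 without Early SAFit2 mouse 5 (Nefl, Nefh and Gap43, beside 2.76% of all genes). It was the same 3 with the motor neuron marker mean as a covariate (beside 3.01%), and 5 with library quality weights (beside 8.6%), with no member called in any of these.

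Late SAFit2 was compared with Late Vehicle in the same way. None of the 9 members passed the test, where 12.1% of all genes did. That background fell to 1 gene without Late SAFit2 mouse 2 or 5, or without Late Vehicle mouse 1, 3, 4 or 5. It was 8 genes without Late SAFit2 mouse 4 and 4971 without Late Vehicle mouse 6. It was 0 genes with the 11 late mice fitted alone, and 0 after correction for GC content and length. Nefl differed by -0.04 ± 0.25 (interval -0.55 to 0.48), Nefh by +0.06 ± 0.28, Nefm by +0.42 ± 0.28 (-0.15 to 0.99), Map1b by +0.27 ± 0.19 and Stmn2 by +0.18 ± 0.12. Ina, Mapt and Gap43 differed by -0.10 ± 0.11, -0.13 ± 0.10 and +0.15 ± 0.13. The median difference of the members was +0.06, beside -0.05 for all genes. With library quality weights 4 members were called: Nefm at +0.80 (limma adjusted p = 0.0124), Map1b at +0.46 and Stmn2 at +0.34 were higher, and Tubb3 at -0.50 was lower, where 38.1% of all genes were called. With single libraries left out, Nefm ran from +0.23 without Late SAFit2 mouse 2 to +0.62 without Late SAFit2 mouse 5. Stmn2 ran from +0.08 without Late SAFit2 mouse 2 to +0.24 without Late SAFit2 mouse 4.

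Tubb3 came nearest to a late difference. It was at 8.56, 8.79, 8.73, 7.71 and 7.96 log2 CPM in Late SAFit2 mice 1 to 5, and ranged from 8.32 to 9.16 (median 8.96) in Late Vehicle. Each Late SAFit2 mouse lay below the Late Vehicle mean of 8.86, with mice 4 and 5 below every Late Vehicle mouse, and the groups overlapped. The difference was -0.51 ± 0.19 (interval -0.89 to -0.12, limma p = 0.0118, adjusted p = 0.0655; exact permutation p = 0.0693). It was the 1 member at a nominal p under 0.05, which 34.5% of all genes reached. Mice 4 and 5 were also the libraries with the fewest reads, 11352989 and 11503386, and with 8.811% and 16.504% of reads on Bc1. Over residuals of the 22 libraries, Tubb3 had r = -0.54 (rho = -0.70) with the Bc1 share. With the share of mitochondrial genes it had r = -0.58 (rho = -0.59). Other members moved with these shares too, in the same order r = -0.535 and -0.663 for Ina and 0.470 and 0.467 for Gap43. For Map1b r was 0.025 and 0.563. The part of these shares in the Tubb3 difference was not tested. The call was reached with the replicate number as a block, which leaves out the unpaired Vehicle mice 6. There the difference was -0.61 (limma adjusted p = 0.0127), beside 25.2% of all genes called. Library sizes without Bc1 and mitochondrial genes also gave the call (-0.60, 0.0427, beside 14.4%), as did library quality weights (0.0159, beside 38.1%). The motor neuron marker mean as a covariate gave it as well (-0.52, 0.0417, beside 11.6%). The call was also reached without Late SAFit2 mouse 1 (-0.56, limma adjusted p = 0.0493, beside 21.1%) or Late Vehicle mouse 2 (-0.55, 0.0453, beside 22.6%). It was reached without Late Vehicle mouse 6 too (-0.61, 0.0157, beside 29.7%). Without Late SAFit2 mouse 4 the difference was -0.35. After correction for GC content and length the difference was -0.06 (adjusted p = 0.892).

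That correction removes each library's trend on GC content, so by construction it moves genes of high or low GC content most. The longest coding transcripts of Nefh, Tubb3, Nefm and Ina are 58.4%, 57.9%, 57.8% and 55.5% G and C, beside a median of 50.1% for all genes. The late difference of Nefm went from +0.42 to +0.92 (limma adjusted p = 0.201), that of Nefh from +0.06 to +0.58 and that of Ina from -0.10 to +0.26 (limma adjusted p = 0.193). For Ina the exact permutation p went from 0.459 to 0.00216, the smallest that the splits of 5 and 6 mice allow. Members of lower GC content moved less: Nefl (48.8%) from -0.04 to -0.02, Map1b (47.6%) from +0.27 to +0.28, Gap43 (49.7%) from +0.15 to +0.15, Stmn2 (46.1%) from +0.18 to +0.04 and Mapt (52.5%) from -0.13 to +0.09. No member was called in the late comparison with this correction.

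The early and late effects were set against each other in the same model. No member passed the test for the difference, where 0% of all genes passed. At a nominal p under 0.05 the count was 1 of 9, Tubb3, where 24.9% of all genes passed. Its early effect exceeded its late effect by 0.79 ± 0.26 (interval 0.24 to 1.33, limma adjusted p = 0.12). The limma adjusted p was 0.0301 with the replicate number as a block (0.86, without the Vehicle mice 6), where 10.6% of all genes were called. It was 0.00834 with library quality weights (beside 30.3%) and 0.0271 without Late Vehicle mouse 6 (beside 15%). The difference was 0.31 (limma adjusted p = 0.517) after GC and length correction. For the mean of both effects 0 of 9 members reached a nominal p under 0.05, where 13.2% of all genes did. The mean effects ran from -0.12 for Mapt to +0.35 for Nefm. Nefm reached it without Early SAFit2 mouse 5 (+0.44, beside 10.7% of all genes), Late SAFit2 mouse 5 (+0.44, 12%) or Late Vehicle mouse 2 (+0.41, 18.3%). Map1b reached it without Early Vehicle mouse 5 (+0.29, beside 18%). With GC and length correction 3 members reached it, Nefm at +0.56, Nefh at +0.45 and Ina at +0.18, where 7.90% of all genes did.

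**Figure D4:**
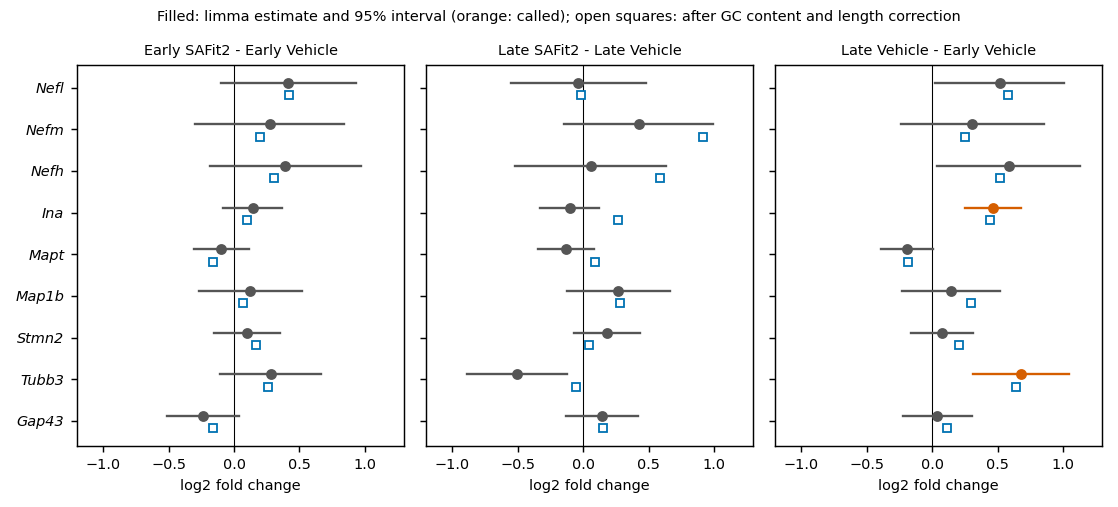
Log2 fold change of each member (horizontal axes) for early and late SAFit2 against Vehicle and for Late against Early Vehicle. Filled points and lines are limma estimates with 95% intervals, orange where the test was passed, and open squares are values after GC and length correction. Ina (+0.47) and Tubb3 (+0.68) between the Vehicle groups are the only calls, and the late panel holds the widest gaps between circles and squares.

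Late Vehicle and Early Vehicle mice differed in 2 members, both higher in Late Vehicle mice, where 9.11% of all genes were called, 3.29% higher and 5.82% lower. These groups differ in gel timing and in labelled batch. Ina ranged from 7.37 to 7.69 (median 7.61) in Early Vehicle and from 7.76 to 8.26 (median 8.08) in Late Vehicle, with no overlap. The difference was +0.47 ± 0.10, or 1.38-fold (interval 0.25 to 0.68, limma adjusted p = 0.00503; exact permutation p = 0.00216, the smallest that 924 splits allow). Tubb3 ranged from 7.81 to 8.65 (median 8.20) in Early Vehicle and from 8.32 to 9.16 in Late Vehicle, and differed by +0.68 ± 0.18, or 1.60-fold (limma adjusted p = 0.0162; exact permutation p = 0.00649). Of the Late Vehicle mice, 4 lay above every Early Vehicle mouse in Tubb3. Both were called with each library left out in turn. They were also called after GC and length correction (+0.44 and +0.64), where 19.2% of all genes were called. The neuronal markers summed to 5789 to 6837 CPM in Early Vehicle and 6561 to 7017 CPM in Late Vehicle mice. From Early to Late Vehicle, group mean log2 CPM went from 9.52 to 9.92 for Eno2, 9.03 to 9.4 for Uchl1 and 9.18 to 9.52 for Thy1. It went from 9.92 to 10.21 for Syp, 8.33 to 8.41 for Syt1, 11.49 to 11.38 for Snap25 and 7.42 to 7.37 for Rbfox3. The mean log2 CPM of these markers had a residual r of 0.69 with Ina and 0.55 with Tubb3. The astrocyte markers summed to 2088 to 3054 CPM and 2822 to 4153 CPM, and their mean log2 CPM had r = -0.09 and -0.33. The part of these markers in the 2 calls was not tested.

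The neurofilament chains pointed the same way between the Vehicle groups without passing the limma test. Nefl differed by +0.51 ± 0.24 (limma adjusted p = 0.183) and Nefh by +0.58 ± 0.27 (adjusted p = 0.174). They were the other 2 members at a nominal p under 0.05, which 24.3% of all genes reached. Their exact permutation p was 0.00866 and 0.00649, the latter the same as for Tubb3. Of the Late Vehicle mice, 3 lay above every Early Vehicle mouse in Nefl and 4 in Nefh. The limma fit shares 1 estimate of spread over all 4 groups, and the chains spread most in the SAFit2 groups. With the motor neuron marker mean as a covariate, added after the data were seen, both were called, Nefl at +0.44 (adjusted p = 0.0281) and Nefh at +0.51 (0.041). That mean had a residual r of 0.90 with Nefl and 0.85 with Nefh, so by construction it takes up part of their spread. The fit with this covariate called 9.06% of all genes. Nefm differed by +0.31 ± 0.26, Map1b by +0.15 ± 0.18, Stmn2 by +0.07 ± 0.12, Gap43 by +0.04 ± 0.13 and Mapt by -0.19 ± 0.10. With library sizes without Bc1 and mitochondrial genes Mapt was called lower (-0.29, limma adjusted p = 0.0478). That setting called 9.82% of all genes. The median of the members was +0.31, beside +0.01 for all genes.

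Differences between members within the same library do not depend on library scaling. In the late comparison Nefm exceeded Nefl by 0.98, 0.92, 1.05, 1.04 and 0.99 log2 units in Late SAFit2 mice 1 to 5, and by 0.17 to 0.95 in Late Vehicle. The mean was 1.00 ± 0.05 against 0.54 ± 0.32 (SD, n = 5 and 6), a difference of 0.46 (exact permutation p = 0.0195, adjusted p = 0.152 over 14 comparisons). Bc1 took 3.306% to 16.504% of reads in Late SAFit2 mice. Late Vehicle mice 2 and 6, with 3.432% and 7.554%, had gaps of 0.95 and 0.89. Early Vehicle mice 4 and 5, with 11.894% and 4.278%, had 0.98 and 1.44. The remaining Late Vehicle mice, with 1.324% to 1.829%, had 0.17 to 0.53. Early SAFit2 mice 2 and 4, with 1.666% and 1.399%, had 0.72 and 0.78. The part of Bc1 in the Nefm minus Nefl difference was not tested. Nefh minus Nefm differed by -0.37 (exact p = 0.0281) and Tubb3 minus Stmn2 by -0.69 (exact p = 0.0325), each with the same adjusted p of 0.152. In the late groups Mapt minus Map1b differed by -0.40 (exact p = 0.0606). None of the 14 passed after adjustment, and the 7 early differences had exact p from 0.152 to 0.842. With GC and length correction Nefm minus Nefl was 0.93 (exact p = 0.026) and Tubb3 minus Stmn2 -0.10 (exact p = 0.162). Nefh minus Nefl differed by 0.09 in the late comparison, by 0.60 there with GC and length correction (exact p = 0.0303, adjusted p = 0.141), and by -0.02 in the early comparison.

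**Figure D5:**
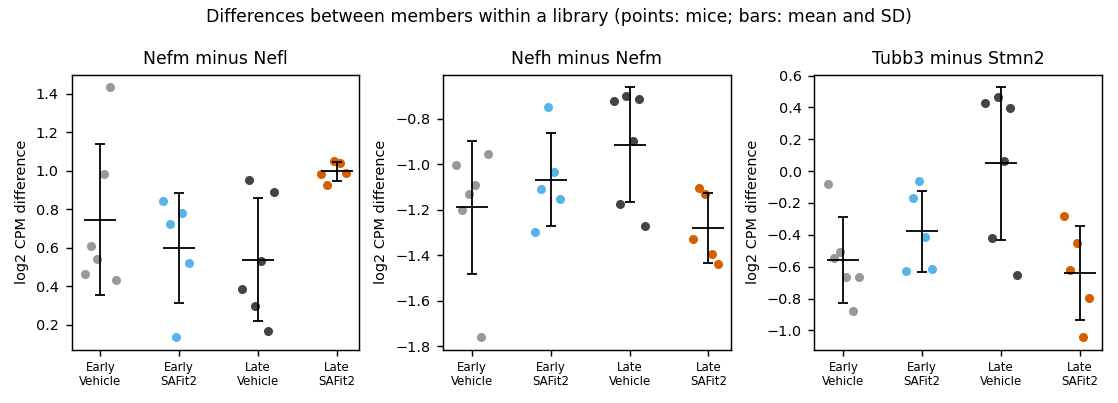
Differences in log2 CPM between members of the same library (vertical axes) in the 4 groups, with 1 point per mouse and bars for mean and SD. Nefm minus Nefl lies between 0.92 and 1.05 in Late SAFit2 mice and between 0.17 and 0.95 in Late Vehicle mice.

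The other genes of the axonal cytoskeleton were described by 7 lists holding 85 tested genes. In the late comparison 16 of the 85 (18.8%) were called, 5 higher and 11 lower, where 5.33% of all genes were called higher and 6.72% lower. Those called higher were between 41.1% and 48.2% G and C and those called lower between 55.2% and 63.7%, and none was called after GC and length correction. The late count over all genes fell to 1 with any of several single late libraries left out, as given above, so at most 1 list gene was called there. In the early comparison 0 of 85 were called. Between the Vehicle groups 14 of the 85 (16.5%) were called, 12 higher in Late Vehicle mice and 2 lower, beside the 3.29% and 5.82% of all genes. The 2 lower were Dcx, the doublecortin of young neurons (-1.35 ± 0.22, limma adjusted p = 0.000251), and Map7 (-0.41 ± 0.12, adjusted p = 0.0329), which binds microtubules.

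The tubulins, the family of Tubb3, held 10 tested genes. Between the Vehicle groups 7 of the 10 were called higher in Late Vehicle mice, where 3.29% of all genes were, with Tubb5 at +0.64 ± 0.13 (limma adjusted p = 0.00203), Tuba1a at +0.67 ± 0.17 and Tubb4b at +0.47 ± 0.12, and a list median of +0.54. All 10 were above 0 there. After GC and length correction 8 were called, where 19.2% of all genes were called in either direction. In the late treatment comparison the 10 were all below 0, with a median of -0.43 beside -0.05 for all genes, and Tubb2a was called (-0.43 ± 0.13, adjusted p = 0.0389). After correction the late median was -0.15, with 2 of 10 above 0. Tubulin genes are similar in sequence, so their counts may not be fully separate.

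The late counts by list below stand beside 5.33% of all genes called higher and 6.72% called lower. After GC and length correction no gene of these lists was called in the late comparison. Among microtubule-associated proteins, stathmins and CRMPs, 2 of 16 genes were called in the late comparison, close to the 12.1% of all genes. Map2, which binds dendritic microtubules, was higher (+0.52 ± 0.14, limma adjusted p = 0.0342), and Dpysl4, a CRMP family member, was lower (-1.31 ± 0.30, adjusted p = 0.0324). In the list of spectrins, ankyrins and node proteins, 3 of 14 were lower, among them Sptbn4, the spectrin of the axon initial segment and nodes (-0.90 ± 0.25), and Cntnap1, the paranodal Caspr (-0.58 ± 0.17). Of 15 axonal motors and linkers, Kif5b, a kinesin heavy chain, was higher (+0.50 ± 0.16), and Klc2, Dctn1 and Dctn2, a kinesin light chain and dynactin subunits, were lower by -0.69 ± 0.21, -0.64 ± 0.21 and -0.32 ± 0.10. Of 13 kinases and phosphatases that act on neurofilaments and tau, Gsk3b (+0.35 ± 0.11) and Ppp2r2b (+0.32 ± 0.11) were higher, and Gsk3a (-0.44 ± 0.14) and Mark2 (-0.48 ± 0.14) lower. Of 11 tested axon growth and injury genes, Klf6 was higher (+0.43 ± 0.14) and Jun lower (-0.37 ± 0.12), and the 6 other intermediate filament genes held no call in either treatment comparison.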

How the data were processed

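RNA of lumbar spinal cord (the study's methods name quadrants and strand-specific libraries) was sequenced by the authors, who took gene counts from featureCounts (mm10) and scaled libraries by trimmed mean of M-values. The submitters' processing notes name Trimmomatic, HISAT2 and edgeR. The deposited values are log2 CPM with a floor of -3.154 at 0 reads. Whole reads were recovered from 100.0% of values (tolerance 0.02 reads), at 11352989 to 24433349 reads per library. Each member had at least 1767 reads in every library.

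Groups came from the treatment and batch labels. The filter asked for log2 CPM of -1 or more in 5 libraries (16765 genes). Comparisons were tested with limma 3.58.1 in R 4.3.3, with a mean per group over all 22 mice, a variance trend on expression and Benjamini-Hochberg adjustment over all genes tested. The mean of both effects was counted at nominal p under 0.05, as in the study. For single members and within-library differences a two-sided exact permutation test was added, in Python 3.11.15. GC content and length came from GENCODE M21 for 96.5% of genes, and the correction removed from each library its loess trend (span 0.5) on both, so a treatment effect along GC content would be removed with it. The fits were tested on simulated data.

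The members and lists were chosen with earlier results of these data known. Named genes are the 9 members, of each list at most 3 called genes per direction and treatment comparison, and the 2 genes closest to each member. Of the genes this rule names, 2 are not reported here. The list genes named between the Vehicle groups were chosen after their values were seen. Residuals of mice sharing a replicate number correlated from -0.236 to 0.317, so the numbers were not taken as pairs. The motor neuron covariate and the fit without correction on genes with a GC value were added after the data were seen.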

Additional observations from a re-analysis of the deposited data

Results flagged for a closer look

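Of 36 sets of values (9 members in 4 groups) examined for a sample far from the others, 1 was marked, near the 1 in 20 that chance gives. Map1b, which binds microtubules, was at 11.33 log2 CPM in Early Vehicle mouse 5, the next highest mouse of the group being at 10.48. That mouse also had the highest Mapt of all libraries (9.48) and the widest gap between Nefm and Nefl (1.44). Without it the early minus late difference of Map1b went from -0.15 to 0.03. No member differed between the early and late effects by the adjusted test.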

How the results depend on the processing

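The early comparison called 0 members in every setting. The Vehicle comparison called 2 members with every library left out in turn, beside 5.63% to 14.8% of all genes. It called 3 (Mapt added) with library sizes without Bc1 and mitochondrial genes, beside 9.82%. It called 4 with library quality weights, beside 30.2%, and 4 with the motor neuron marker mean as a covariate, beside 9.06%. The late comparison called 0 members by default, beside 12.1% of all genes, and 4 with quality weights, beside 38.1%. It called 1, Tubb3, with library sizes without Bc1 and mitochondrial genes (beside 14.4%), the replicate block (25.2%) and the motor neuron covariate (11.6%). Leaving out libraries gave 0 to 1 in the late comparison, 0 to 1 for the early minus late difference, 0 to 1 for the mean effect and 0 in the early comparison. For the difference, quality weights and the replicate block called 1 member each, beside 30.3% and 10.6% of all genes. For the mean effect 4 were counted with quality weights, beside 38.2% of all genes. The count was 3 with GC and length correction (beside 7.9%) and 3 with that correction and the replicate block (7.19%). It was 1 with library sizes without Bc1 and mitochondrial genes (13.6%) and 1 with the motor neuron covariate (13.3%).

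Counts over all genes moved more. The late count was 62 with no variance trend, 6381 with quality weights, 4219 with the replicate block, 876 with limma voom, and 0 with the 11 mice alone, with GC correction and with GC correction plus block. Leaving out libraries gave 1 to 4971. Quality weights gave 13 early genes. The difference count was 2 with no variance trend, 5082 with quality weights, 1785 with the replicate block and 0 to 2513 with a library left out. The mean count was 6396 with quality weights, 1281 with GC correction, 1165 with GC correction and block and 1313 to 3780 with a library left out. The Vehicle count was 5067 with quality weights, 3110 with GC correction and 944 to 2482 with a library left out. The causes were not tested.

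Small differences of uncalled members changed sign. In the late comparison Nefl was 0.197 with quality weights and 0.019 with median centring, Nefh -0.039 with library sizes without Bc1 and mitochondrial genes, Ina 0.264 with GC correction and 0.276 with block added, and Mapt 0.094 and 0.088. In the early comparison Mapt was 0.008 with quality weights and Map1b -0.034 with GC correction and block. The mean effect of Ina was -0.024 with quality weights and -0.025 with library sizes without Bc1 and mitochondrial genes, which also gave Stmn2 -0.026 and Gap43 -0.060 between Vehicle groups. With GC correction the late Ina minus Nefl difference was 0.281 and Gap43 minus Stmn2 0.107. With single libraries left out, sign changes were seen for late Nefl (-0.25 to 0.156), late Nefh (-0.182 to 0.292), the mean of Ina (-0.012 to 0.059), Map1b in the difference (-0.27 to 0.032) and Gap43 between Vehicle groups (-0.013 to 0.092), and for Ina minus Nefl (-0.18 to 0.14) and Gap43 minus Stmn2 (-0.197 to 0.152) late and Nefh minus Nefl early (-0.076 to 0.046). Replicate numbers are shared by the groups only as numbers, and the replicate block, which also leaves out the unpaired Vehicle mice 6, gave a late Tubb3 difference of -0.61, as did leaving out Late Vehicle mouse 6. Each member had at least 1767 reads in every library.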
